A study of Mus musculus with 38 samples.

Results

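The Nodal pathway group comprised 8 genes chosen by name: the ligands Nodal, Gdf3, Inhba and Inhbb, the co-receptor Tdgf1, and the secreted antagonists Lefty1, Lefty2 and Cer1. They were 8 of the 23475 genes kept from the bulk table, which lists 23481. Their rows were read in all 25 bulk RNA libraries, 9 plates of SCRB-seq cells and 4 sets of SMART-seq2 cells of E14 mouse embryonic stem cells (mESCs), a single cell line, as the cells left pluripotency under all-trans retinoic acid (RA). The comparisons followed these genes over 96 h of RA, across cells sorted on CD24 and PDGFRA, and into the ectoderm-like and extraembryonic endoderm-like (XEN-like) cells that the protocol yields.

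Nodal and its relatives are secreted growth factors of the TGF-beta superfamily that signal through activin receptors and the transducers SMAD2 and SMAD3. Nodal and Gdf3 need the membrane-anchored co-receptor encoded by Tdgf1 (also called Cripto), whereas activins, the dimers of the subunits encoded by Inhba and Inhbb, do not. Lefty1, Lefty2 and Cer1 encode secreted proteins that block Nodal signalling, and Lefty1 and Lefty2 are themselves textbook targets of the pathway.

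The starting cells grew in 2i medium with LIF (2i/L), that is, with an inhibitor of MEK (PD0325901) and one of GSK3 (CHIR99021). For differentiation they were moved to N2B27 medium with 0.25 µM RA and without the inhibitors or LIF, so that every RA sample differed from the 0 h cells in both the addition and the withdrawals. Bulk libraries were made from 2i/L cells (n = 2), from whole RA cultures at 6, 12, 24, 36, 48, 60, 72, 84 and 96 h (1 each), from PDGFRA-negative cells in CD24 quartiles Q1 to Q4 at 48 h and in CD24 terciles T1 to T3 at 72 h (1 each), and from PDGFRA+/CD24- cells at 72 h (1). After 96 h of RA, CD24+/PDGFRA- ectoderm-like cells (n = 2) and PDGFRA+/CD24- XEN-like cells (n = 2) were sorted, and each kind was also kept in N2B27 with EGF and FGF2, the ectoderm-like cells on coated dishes for 5 passages and the XEN-like cells for 3 weeks with propagation as floating aggregates (1 library each). The study's methods call the replicates of mESCs and of both sorted types biological, whereas the labels do not say whether they came from separate cultures, so that p-values measure the spread between these samples.

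Bulk libraries held 1063830 to 2459483 unique molecular identifiers (UMIs, each counting 1 captured mRNA molecule), and levels are given as CPM, the UMIs of a gene for every 1000000 UMIs of its library. The gates carried their markers: Cd24a rose from 19.4 to 127 CPM over Q1 to Q4 and Pdgfra stood at 144 and 143 CPM in the sorted XEN-like libraries. The second sorted ectoderm-like library held Pdgfra at 36.8 CPM against 3.33 in the first, and its 11 XEN markers summed to 1779 against 485 CPM. Single genes went against the labels of both cultures. The ectoderm-like culture held Cd24a at only 18.7 CPM and Col3a1, a mesenchymal collagen gene, at 1452, while the XEN-like culture held Cd24a at 421 CPM. As whole lists, 10 ectoderm markers summed to 1501 CPM in the ectoderm-like and 1551 CPM in the XEN-like culture. The 11 XEN markers summed to 2235 CPM in the ectoderm-like and 10097 CPM in the XEN-like culture. Each of 19 bulk conditions had 1 library, so that ratios between them are given with exact 95% intervals that cover counting error only and with no test. In these ratios a gene was called when it differed at least 2-fold and had at least 20 UMIs in the larger library.

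The annotation (GENCODE M21, GRCm38) places Nodal on chromosome 10 from 61417972 to 61425338 with 3 exons, Tdgf1 on chromosome 9 from 110939603 to 110946158 with 6, and Inhbb on chromosome 1 from 119415465 to 119422248 with 2. Lefty1 and Lefty2 lie on the same chromosome 35.9 kb apart. In stretches of 46 bases, 19.4% of the Lefty1 transcript was identical to Lefty2, but only 3.3% of its last 500 bases was, the end from which UMI reads are drawn, so that a small part of the reads of this pair may be split between them. Of the Tdgf1 transcript, 13.5% was shared with the pseudogene Tdgf1-ps1 and 0% of the last 500 bases.

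RefSeq promoter sequence (GRCm38.p6) was found for 5 of the 8 members: Nodal, Inhba, Inhbb, Tdgf1 and Cer1. The 250 bases before the start are printed for the ligand and co-receptor whose levels followed each other most closely over the bulk libraries (Nodal, chr10:61417722-61417971, plus strand, and Tdgf1, chr9:110946159-110946408, minus strand) and for the ligand subunit that appeared only early under RA (Inhbb, chr1:119422249-119422498, minus strand). All are written 5′ to 3′ in lower case, because no searched motif was found in them and none had to be marked in capitals.
Nodal: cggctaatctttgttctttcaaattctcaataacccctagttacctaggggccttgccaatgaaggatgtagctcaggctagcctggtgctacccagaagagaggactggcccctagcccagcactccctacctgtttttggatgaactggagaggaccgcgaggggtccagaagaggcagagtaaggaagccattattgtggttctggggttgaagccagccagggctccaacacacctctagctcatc
Tdgf1: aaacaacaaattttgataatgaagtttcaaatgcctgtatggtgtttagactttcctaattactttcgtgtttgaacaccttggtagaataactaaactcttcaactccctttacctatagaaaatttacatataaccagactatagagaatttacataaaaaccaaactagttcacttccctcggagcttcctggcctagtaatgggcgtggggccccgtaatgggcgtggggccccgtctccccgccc
Inhbb: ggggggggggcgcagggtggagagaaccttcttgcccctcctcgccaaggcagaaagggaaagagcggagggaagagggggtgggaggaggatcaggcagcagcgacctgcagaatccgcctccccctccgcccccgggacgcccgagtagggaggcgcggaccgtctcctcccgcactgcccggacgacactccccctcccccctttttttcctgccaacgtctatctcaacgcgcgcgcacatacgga
Bases G and C made up 53.2% of the Nodal stretch, 42% of the Tdgf1 stretch and 68% of the Inhbb stretch. The core of the FOXH1 recognition sequence (AATNCACA), the palindromic SMAD element (GTCTAGAC) and a retinoic acid response element of the DR5 type, in which the half-site AGGTCA is repeated after 5 bases, were searched on both strands. They were in none of the 5 member stretches and in 3.18%, 0.167% and 0.00913% of all 32851 promoter stretches of that length. The absence says only that these letters are not in these windows.

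Over the RA time course in bulk the members other than Lefty2 followed 4 courses. Nodal, Gdf3 and Tdgf1 were high in 2i/L and lost, Lefty1 peaked at 36 h, Inhbb was detected only between 6 h and 36 h, and Inhba and Cer1 stayed at or near 0. At 96 h, 3 members were called lower than in the first mESC library, where 8.93% of the 7361 eligible genes were lower. Fewer cells that express a gene and less of its mRNA per cell cannot be told apart in bulk libraries.

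Nodal, the ligand that names the pathway, stood at 35.4 and 31.3 CPM (81 and 72 UMIs) in the mESC libraries. Under RA it was at 29.3 CPM at 6 h, 21.6 at 12 h, 15.9 at 24 h and 10.3 at 36 h, and then at 2.44, 2.40, 1.63, 1.56 and 3.07 CPM from 48 h to 96 h. Each value up to 36 h lay below the one before it, but no single step up to 36 h exceeded counting error. At 24 h Nodal was the 1 member called lower than in the first mESC library and Lefty1 the 1 called higher, against 6.23% and 9.32% of genes, though Lefty1 at 18.4 CPM lay below the 26.6 CPM of the second mESC library. At 36 h Nodal and Tdgf1 were lower and Lefty1 higher, against 9.83% and 8.29%. The 36 h value of Nodal was 3.44-fold lower than the first mESC library (95% interval 2.02 to 6.20) and the 96 h value 11.5-fold lower (5.07 to 32.3).

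Gdf3, a Nodal-like ligand of pluripotent cells, kept its level longer than Nodal in bulk. It measured 123 and 104 CPM in mESCs and 101, 101 and 112 CPM at 6, 12 and 24 h. It was then at 84.7 CPM at 36 h, 39.4 at 48 h, 18 at 60 h and 8.17, 9.33 and 8.20 CPM at 72, 84 and 96 h. The values from 6 h to 24 h did not differ beyond counting error from one to the next, and each step from 24 h to 72 h was a decrease beyond it, down to 15.0-fold lower at 96 h than in the first mESC library (9.10 to 26.7).

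Tdgf1, the co-receptor that Nodal and Gdf3 share, held 387 and 496 CPM (884 and 1140 UMIs) in mESCs. It stayed at 391, 349 and 336 CPM at 6, 12 and 24 h. It dropped to 84.1 CPM at 36 h, 11 at 48 h, 7.21 at 60 h, 4.36 at 72 h and 4.15 at 84 h, before a 96 h value of 18.4 CPM. Nearly all of the loss thus fell between 24 h and 48 h, in steps of 4.00-fold (3.33 to 4.83) and 7.66-fold (5.05 to 12.0). Between 24 h and 36 h Tdgf1 was the 1 member called lower, against 4.3% of genes, and Lefty1 the 1 called higher, against 1.77%. Between 36 h and 48 h it was 1 of 3 with Gdf3 and Lefty1, against 2.06%. The step from 84 h to 96 h was a rise of 4.45-fold (2.03 to 11.1), from 8 to 36 UMIs, a change called for 2.59% of genes. With 1 library at each time it has no replicate of the whole culture. Other 96 h samples lay below that value, at 5.56 and 1.94 CPM in sorted ectoderm-like and 5.08 and 1.82 CPM in sorted XEN-like libraries. The 96 h SCRB-seq plate held 0 Tdgf1 UMIs.

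Inhbb, which encodes a subunit of activin B, had 0 UMIs in both mESC libraries, 19 at 6 h, 16 at 12 h, 9 at 24 h and 1 at 36 h, and 0 in the other 19 libraries. Its levels were 9.29, 7.05, 4.48 and 0.605 CPM at those times. Its highest count lay 1 UMI under the minimum of 20, so it was not eligible for a call. Inhba, which encodes the subunit of activin A, had no UMI in any library of the time course.

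Lefty1, the first of the antagonists, had its highest bulk level in the middle of the time course. It had 2 UMIs in one mESC library and 61 in the other (0.875 and 26.6 CPM), then 6, 2, 37 and 105 UMIs at 6, 12, 24 and 36 h, and 7, 4, 3, 8 and 8 UMIs from 48 h to 96 h. The 36 h level of 63.5 CPM was 72.1-fold above 12 h (19.5 to 603) and 2.39-fold above the higher mESC library, and fell 22.3-fold by 48 h (10.5 to 56.9). Lefty1 was the 1 member whose highest value between 6 h and 84 h was at least 2-fold above both mESC libraries and 96 h, a course shown by 7.33% of 8086 eligible genes. At 36 h Tdgf1 had already dropped to 84.1 CPM and Nodal to 10.3 CPM.

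Lefty2 differed most between the mESC libraries, with 1 UMI in the first and 134 in the second (0.437 CPM, 95% interval 0.0111 to 2.44, and 58.3 CPM, 48.9 to 69.1). Between these 2 libraries Lefty2 was 133-fold and Lefty1 30.3-fold higher in the second, and 6.36% of 6622 genes were called higher there. Nodal (0.884 times), Gdf3 (0.843 times) and Tdgf1 (1.28 times) differed by at most 1.28 times. In the whole RA cultures Lefty2 had at most 5 UMIs, at 36 h. Cer1, which encodes Cerberus, had no more than 2 UMIs in any bulk library and 13 in all.

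**Figure D1:**
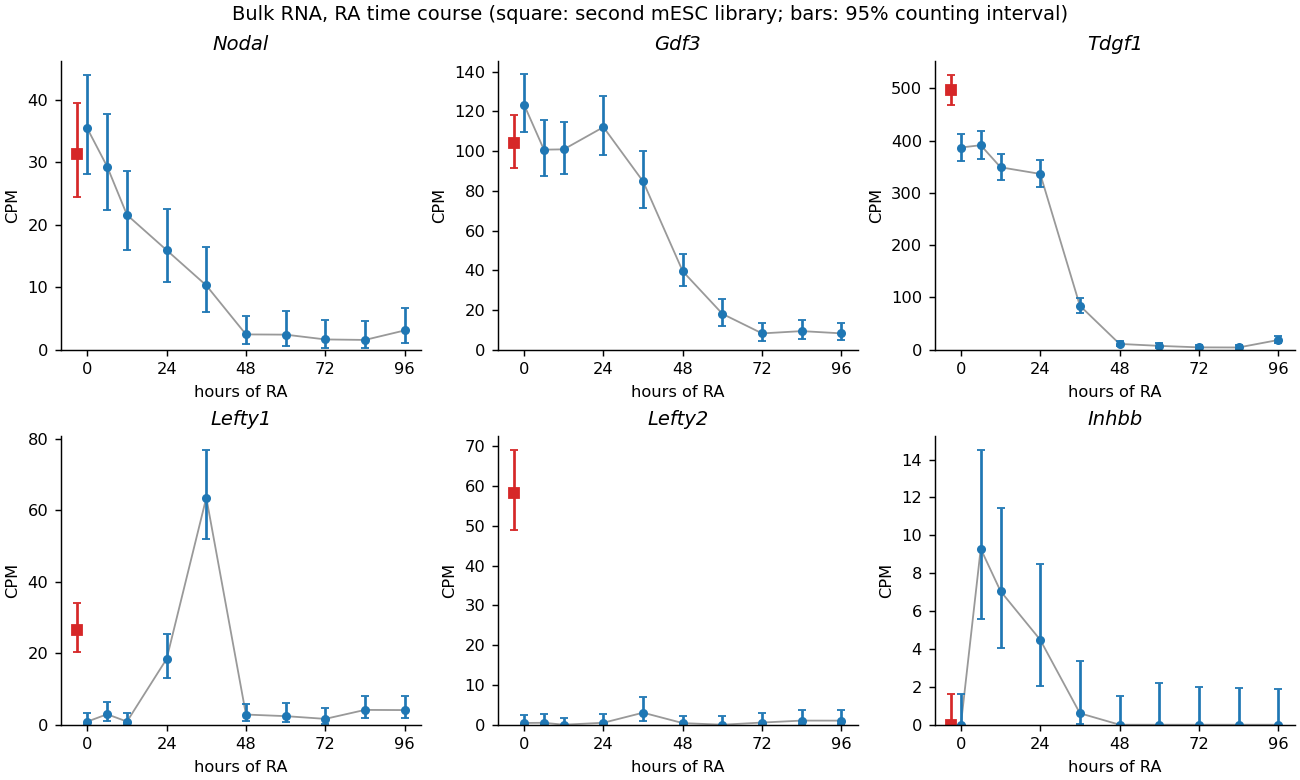
Levels of 6 members in whole cultures, in CPM against hours of RA, with 1 point for each library, the second mESC library as a red square left of 0 h, and bars for exact Poisson 95% intervals. Nodal, Gdf3 and Tdgf1 fall from 35.4, 123 and 387 CPM to 3.07, 8.20 and 18.4, Lefty1 peaks at 63.5 CPM at 36 h, and Lefty1 and Lefty2 differ between the 0 h libraries.

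Other genes of the pathway, a list of 36 receptors, convertases, transducers, inhibitors and targets, did not follow a single course. At 96 h, 8 of its 14 eligible genes were called higher than in the first mESC library and 2 lower, where 26.1% of all eligible genes were higher and 8.93% lower. Skil, which encodes a SMAD corepressor that the pathway induces, had its highest level at the time of the Lefty1 peak. It measured 7.87 and 14.4 CPM in mESCs, 16.1 and 10.6 at 6 and 12 h, 40.8 at 24 h, 84.7 at 36 h and 37.8 at 48 h. From the first mESC library to 36 h it rose 10.8-fold (6.56 to 18.7). Smad7, which encodes an inhibitory SMAD, was instead at 20.1 and 49.6 CPM in mESCs and at 3.63 CPM at 36 h. Fst, which encodes follistatin, a trap for activins, was at 3.94 and 10.0 CPM in mESCs, at no more than 0.813 CPM from 6 h to 48 h, and at 49.6, 124 and 173 CPM at 72, 84 and 96 h. The receptor gene Acvr1b never exceeded 2 UMIs, so that its course was not detectable at this depth.

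Over all 25 bulk libraries the levels of Nodal and Tdgf1, as log2(CPM + 1), were correlated at Pearson r = 0.957, Gdf3 and Nodal at 0.927 and Gdf3 and Tdgf1 at 0.910. Among 6304 genes with at least 50 UMIs in a library, Tdgf1 was the gene most like Nodal, followed by Morc1 (0.95) and Mtf2 (0.948). Those most like Gdf3 were Slc7a3 (0.971), Mylpf (0.967) and Hsf2bp (0.955). Tdgf1 was most like an entry whose symbol had been turned into a date and cannot be read back (0.957), then Nodal and Mylpf (0.956). Lefty1 had weaker counterparts in Rabggta (0.831), Mrpl9 (0.808) and Gm7616 (0.776), and Lefty2 in Pkm (0.747), 1190007I07Rik (0.721) and Ephx2 (0.690). Many of the points share a time course, so these values describe the libraries and carry no test.

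Within 48 h cultures, the PDGFRA-negative cells sorted by CD24 differed in Tdgf1 more than in Gdf3 or Lefty1, the other eligible members. Tdgf1 measured 76.9 CPM in Q1, the lowest CD24 quartile, 58.6 in Q2, 39.5 in Q3 and 9.47 in Q4 (115, 82, 42 and 15 UMIs). It was lower at each step, with the first step within counting error, and 8.12-fold higher in Q1 than in Q4 (4.72 to 15.0). It was the 1 member called lower in Q4 than in Q1, where 4.24% of 5426 genes were, and the 1 eligible member of 3 that fell at every step, where 8.59% of 5586 genes did.

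Of the ligands, Gdf3 had a flatter course over the gates than Tdgf1, and Nodal had too few UMIs to say. Gdf3 stood at 59.5, 73.6, 36.7 and 33.5 CPM from Q1 to Q4, with its drop between Q2 and Q3 (2.01-fold, 1.38 to 2.98) and a Q4 level 0.562 times that of Q1 (0.392 to 0.799). Nodal was at 10.0, 10.7, 8.46 and 3.79 CPM, from 15, 15, 9 and 6 UMIs, and its ratio of 0.378 between Q4 and Q1 had an interval that includes 1 (0.120 to 1.03). Inhba and Inhbb had 0 UMIs in all 4 gates.

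Lefty1 had no gradient over CD24 beyond counting error. It was at 52.8, 43.6, 42.3 and 54.3 CPM from Q1 to Q4, and the Q4 level was 1.03 times that of Q1 (0.748 to 1.41). Lefty2 had 3, 5, 7 and 5 UMIs and Cer1 no more than 2. Over the same gates 8 pluripotency genes summed to 916, 826, 717 and 561 CPM and 10 ectoderm genes to 449, 595, 840 and 1108 CPM. The part of these shifts in the Tdgf1 gradient was not tested.

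The sorted 48 h cells also differed from the whole 48 h culture. Summed over the 4 gates, Lefty1 was 17.2-fold higher than in the whole culture (8.22 to 43.1; 48.9 against 2.85 CPM), Tdgf1 4.17-fold (2.80 to 6.46), Nodal 3.33-fold (1.42 to 9.55) and Lefty2 8.87-fold (1.42 to 368), whereas Gdf3 was at 1.30 times (1.03 to 1.65). These 4 of 5 eligible members were called higher, against 5.81% of 8788 genes. Each gate alone held more Lefty1 than the whole culture did. Pluripotency genes summed to 517 CPM in the whole culture, below all 4 gates, and whether the cultures differed in stage was not tested.

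At 72 h the lowest CD24 tercile held most of what remained. Gdf3 was at 27.2, 6.18 and 6.91 CPM in T1, T2 and T3, Tdgf1 at 21, 2.65 and 7.68 CPM, Lefty1 at 23.3, 4.41 and 4.61 CPM and Nodal at 7.77, 0.882 and 2.30 CPM. In T3, Gdf3 was 3.94-fold (1.86 to 9.31), Tdgf1 2.73-fold (1.28 to 6.33) and Lefty1 5.06-fold (2.07 to 14.9) lower than in T1, the 3 members called, against 8.33% of 5426 genes. Summed over the 3 terciles and the PDGFRA+/CD24- cells, Lefty1 was the 1 member called higher than in the whole 72 h culture (5.41-fold, 1.74 to 27.2), against 3.71% of genes. T2 and T3 did not differ beyond counting error in any of the 4. The pluripotency genes summed to 627, 348 and 256 CPM over T1 to T3, and XEN markers to 797, 473 and 356 CPM.

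PDGFRA+/CD24- cells of 72 h held few UMIs of the members. Their counts were 1 for Nodal, 4 for Gdf3, 2 for Tdgf1, 4 for Lefty1 and 0 for Lefty2, Cer1, Inhba and Inhbb. Against the 3 PDGFRA-negative terciles together, Gdf3 was 4.66-fold (1.71 to 17.8), Tdgf1 7.31-fold (1.90 to 62.4) and Lefty1 3.75-fold (1.36 to 14.4) lower. A difference of that direction was called for 20.9% of 8088 genes in this comparison.

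**Figure D2:**
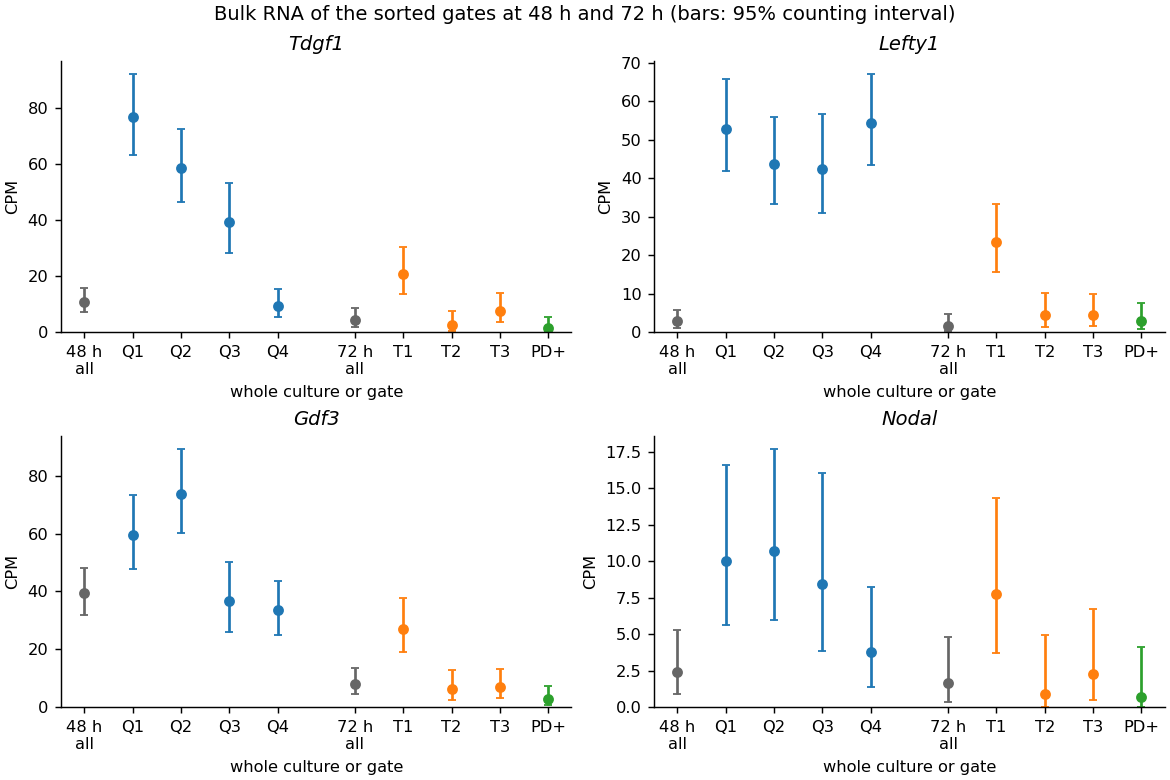
Levels of Tdgf1, Lefty1, Gdf3 and Nodal, in CPM, in the whole cultures of 48 h and 72 h, the CD24 quartiles Q1 to Q4 at 48 h, and the terciles T1 to T3 and PDGFRA+/CD24- cells (PD+) at 72 h, with 1 library each and exact Poisson 95% intervals as bars. Tdgf1 falls from 76.9 to 9.47 CPM from Q1 to Q4 while Lefty1 stays between 42.3 and 54.3 CPM, and T1 exceeds T2 and T3.

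In the replicated comparison the co-receptor and 2 ligands were far lower in both sorted cell types than in mESCs, and did not measurably differ between the sorted types. Only Nodal, Gdf3 and Tdgf1 of the 8 members passed the filter on low counts among 8945 genes, and they passed through the mESC libraries, so that their being called is no count in support of a pattern. Of all genes tested, 9.29% were lower in ectoderm-like and 10.5% lower in XEN-like cells than in mESCs (edgeR quasi-likelihood test, Benjamini-Hochberg adjusted p below 0.05).

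Tdgf1 measured 387 and 496 CPM in mESCs, 5.56 and 1.94 CPM in the sorted ectoderm-like libraries and 5.08 and 1.82 CPM in the XEN-like ones. Its mean was 441 ± 77.4 CPM (SD, n = 2) in mESCs, 3.75 ± 2.56 in the ectoderm-like group and 3.45 ± 2.30 in the XEN-like group. The log2 fold change from mESCs was -7.14 (SE 0.453, edgeR adjusted p = 8.77e-06) in ectoderm-like and -7.07 (SE 0.459, edgeR adjusted p = 1.11e-05) in XEN-like cells.

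Gdf3 stood at 114 ± 13.7 CPM (SD, n = 2) in mESCs, 2.68 ± 0.138 in sorted ectoderm-like cells and 2.58 ± 1.5 in sorted XEN-like cells, with every mESC library above every sorted one. Its log2 fold changes were -5.68 (SE 0.438, edgeR adjusted p = 1.60e-05) and -5.78 (SE 0.458, edgeR adjusted p = 2.96e-05). Nodal was at 33.4 ± 2.89 CPM in mESCs and had 1, 3, 2 and 0 UMIs in the 4 sorted libraries, means of 1.25 ± 0.978 and 0.508 ± 0.718 CPM. Its log2 fold changes were -5.02 (SE 0.585, edgeR adjusted p = 0.000193) and -5.79 (SE 0.663, edgeR adjusted p = 0.000163). At counts this low the depth limits how far below the mESC level the sorted cells can be placed. Genes high in the XEN-like culture alone (Lgals4, Dpcr1, Gsta1, Tff1 and 9130204L05Rik, chosen after their values were seen) appeared in the other 24 libraries at a median of 0.0601% and at most 0.415% of their count in the culture. The part of such stray UMIs in the few Tdgf1, Gdf3 and Nodal UMIs of sorted cells was not tested.

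Between XEN-like and ectoderm-like cells, with 5.75% of genes lower and 6.98% higher in XEN-like cells, none of the 3 members tested was called by edgeR, and none had an unadjusted p below 0.05 (lowest 0.515). The log2 differences were -0.76 for Nodal (95% interval -3.16 to 1.63), -0.11 for Gdf3 (-1.51 to 1.30) and 0.07 for Tdgf1 (-1.26 to 1.39). Intervals this wide leave room for differences of over 2-fold in either direction. The smallest p that an exact permutation test of 2 against 2 libraries allows is 0.333.

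Lefty1 and Lefty2 were not tested in this fit, because they were high in only 1 mESC library. Lefty1 was at 0.875 and 26.6 CPM in mESCs, 5.00 and 0.646 in ectoderm-like and 1.52 and 4.56 in XEN-like libraries, so that the groups overlap. Lefty2 had 0 and 1 UMIs in the ectoderm-like libraries and 0 and 1 in the XEN-like ones. Inhba had 1 UMI in the first ectoderm-like library, and Inhbb and Cer1 had none in all 6 libraries.

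**Figure D3:**
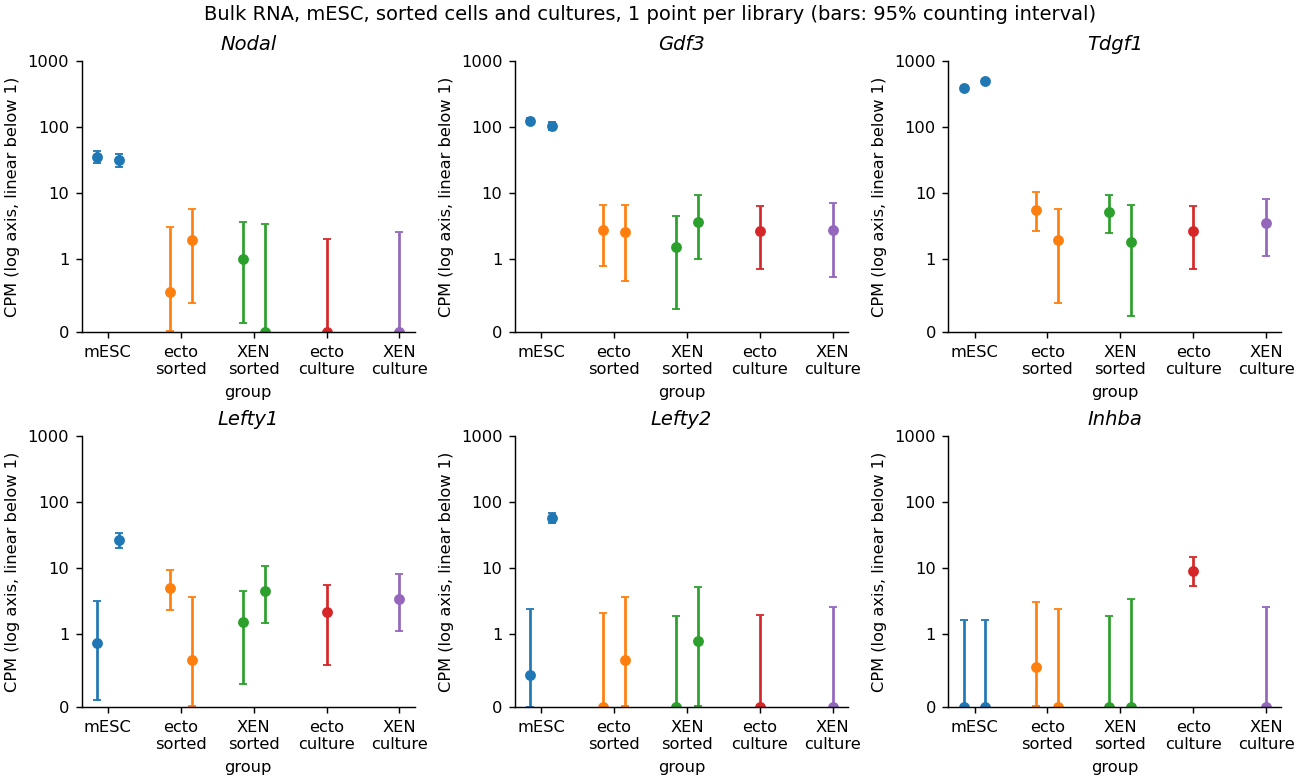
Levels of 6 members in mESCs, sorted ectoderm-like and XEN-like cells and their cultures, in CPM on a log axis that is linear below 1, with 1 point for each library and exact Poisson 95% intervals as bars. Nodal, Gdf3 and Tdgf1 separate mESCs from both sorted types, and for Lefty1 and Lefty2 the mESC libraries lie 30.3-fold and 133-fold apart.

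Some genes of the wider pathway list differed between the sorted types. Of its 36 genes 19 could be tested. In it 3 rose and 2 fell in ectoderm-like cells, 5 rose and 2 fell in XEN-like cells against mESCs, and 5 were higher and 2 lower in XEN-like than in ectoderm-like cells. Over all genes tested, 9.85% and 12.3% rose in the comparisons with mESCs, and 6.98% were higher and 5.75% lower in XEN-like than in ectoderm-like cells. Cfc1, the paralogue of Tdgf1 and like it a Nodal co-receptor gene, had 12 and 13 UMIs in the sorted XEN-like libraries, 11 in the 72 h PDGFRA+ cells, 10 in the 96 h culture and at most 3 in any other library. It was higher in XEN-like than in ectoderm-like cells (24.9-fold, edgeR adjusted p = 0.0125) and 15.1-fold above mESCs (edgeR adjusted p = 0.00853), at a mean of 8.97 CPM against 0.436. Cfc1 passed the filter on low counts only through the XEN-like libraries, so that its being called is no count in support of a pattern.

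Fst stood at 117 and 142 CPM in XEN-like, 4.45 and 22 in ectoderm-like and 3.94 and 10.0 in mESC libraries, 16-fold higher in XEN-like cells than in mESCs (edgeR adjusted p = 0.000903) and 10.7-fold higher than in ectoderm-like cells (edgeR adjusted p = 0.00447). The transducer gene Smad2 was higher in XEN-like than in ectoderm-like cells (86.7 against 41.6 CPM, edgeR adjusted p = 0.0229), whereas Smad3 was lower (1.47 against 10.7 CPM, edgeR adjusted p = 0.0260) and so was the receptor gene Acvr2b (2.13 against 10.8 CPM, edgeR adjusted p = 0.0411). Pcsk6, which encodes a convertase that cleaves the Nodal precursor, was lower than in mESCs (12.2 CPM) in ectoderm-like (2.27 CPM, edgeR adjusted p = 0.0110) and XEN-like cells (3.35 CPM, edgeR adjusted p = 0.0275). Smad7 was lower in both as well, at 4.16 CPM (edgeR adjusted p = 0.00135) and 8.27 CPM (edgeR adjusted p = 0.00666) against 34.9 CPM in mESCs. The endoderm gene Foxa2 had no UMI in either mESC library and stood at 20.6 CPM in ectoderm-like and 27.2 CPM in XEN-like cells, both called higher. Smad3 and Acvr2b passed the filter through the ectoderm-like libraries, Pcsk6 through the mESCs and Foxa2 through the sorted cells. Their being called is likewise no count in support of a pattern.

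The long-term cultures added 1 feature. Inhba, at 0 UMIs in 22 bulk libraries and 1 in 2 others, had 17 UMIs in the ectoderm-like culture, or 9.10 CPM, 30.5-fold above the 2 sorted ectoderm-like libraries together (4.77 to 1273). That count lay under the minimum of 20. In the same library a list of 6 neural crest and mesenchyme genes summed to 2770 CPM, with Dcn at 771 and Col1a1 at 506 CPM. Sox10 and Foxd3 of that list had 0 UMIs there, and the part of the others in the Inhba count was not tested. No other member was eligible for a call in either culture, where 16.1% and 22.5% of genes were called higher and 15.9% and 19.2% lower than in the sorted cells. Nodal had 0 UMIs in both cultures, and Gdf3, Tdgf1 and Lefty1 had 4 or 5 each.

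In single cells, SCRB-seq counted UMIs in 2448 of 3456 wells that had more than 2000 UMIs, 137 to 335 cells for each of 9 times with medians of 3559.5 to 5069 UMIs a cell. All cells of a time came from 1 plate, so values are given as summed UMIs per 10000 with exact 95% intervals and no test. No well's counts equalled those of another, and 46 well names were among the kept cells of all 9 plates. From 0 h to 96 h, Tdgf1 was at 4.11, 2.65, 3.02, 2.58, 1.90, 0.156, 0.0116, 0.0458 and 0 UMIs per 10000. Between 36 h and 48 h Tdgf1 dropped 12.2-fold on the plates (8.15 to 19) and 7.66-fold in bulk (5.05 to 12.0). The step from 48 h to 60 h on the plates was a drop of 13.4-fold (3.35 to 117), but from only 25 to 2 UMIs. In bulk that step was within counting error.

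Nodal was at 0.494, 0.413, 0.553, 0.326, 0.495 and 0.200 UMIs per 10000 from 0 h to 48 h, and at 0 in the cells of 60, 72 and 96 h. The 36 h plate was at 1.00 times the 0 h plate (0.759 to 1.33), whereas the bulk culture had dropped 3.44-fold by then. After 48 h Nodal was undetected in 273, 235 and 137 cells, at least 28.3-fold below 0 h at 60 h if the plate is set at a floor of 3 UMIs.

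Gdf3 was at 1.34, 1.08, 0.736, 0.718, 0.483, 0.444, 0.186, 0.0993 and 0.110 UMIs per 10000. The steps from 12 h to 24 h, 36 h to 48 h, 60 h to 72 h and 72 h to 96 h did not exceed counting error. It was the last of the 3 to remain, in 5.84% of the 96 h cells (2.55 to 11.2). Inhbb was at 0 at 0 h, 0.0694 at 6 h, 0.162 at 12 h, 0.118 at 24 h, 0.0696 at 36 h and 0.00625 at 48 h, and at 0 later. The 12 h level was at least 10.2-fold above a floor of 3 UMIs at 0 h, so that the early appearance of Inhbb in bulk was met again in separate libraries. Inhba had no UMI in any cell.

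The antagonists Lefty1 and Lefty2 were far higher in the 0 h cells than in the bulk mESCs. Lefty2 had 787 UMIs at 0 h, 28 at 6 h and 3 at 12 h, or 4.18, 0.108 and 0.0157 per 10000, a 38.7-fold drop within the first 6 h (26.6 to 58.6). Lefty1 had 290 UMIs at 0 h, 3 at 6 h and 2 at 12 h, and its drop by 6 h was 133-fold (45.1 to 649). As CPM, Lefty2 was at 418 in these cells against 0.437 and 58.3 in the bulk libraries, and Lefty1 at 154 against 0.875 and 26.6, while Tdgf1 was at 411 against 387 and 496 and Nodal at 49.4 against 35.4 and 31.3. These tables were scaled separately. The mESCs of the plate and of the 2 bulk libraries thus held 3 different levels of Lefty1 and of Lefty2.

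Lefty1 and Lefty2 both came back later. Lefty1 was at 0.124 UMIs per 10000 at 24 h, 0.303 at 36 h, 0.325 at 48 h and 0.0581 at 60 h, and Lefty2 at 0.0131, 0.0737, 0.212 and 0.0116. Unlike in bulk, the highest Lefty1 level on the plates was at 0 h (1.54), with 36 h 5.08-fold below it (3.92 to 6.65). The second appearance of Lefty1 matched the bulk course at 24 h and 36 h, but at 48 h the plate kept the 36 h level (1.07 times, 0.738 to 1.55) where the bulk culture had lost it. Cer1 had 3 UMIs or fewer on each plate up to 36 h, and then 10, 9, 12 and 6 UMIs at 48, 60, 72 and 96 h, or 0.0625, 0.0523, 0.0917 and 0.0826 per 10000. Its UMIs lay in 3.61%, 2.93%, 5.11% and 3.65% of cells, and whether these few UMIs exceed stray reads was not tested.

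**Figure D4:**
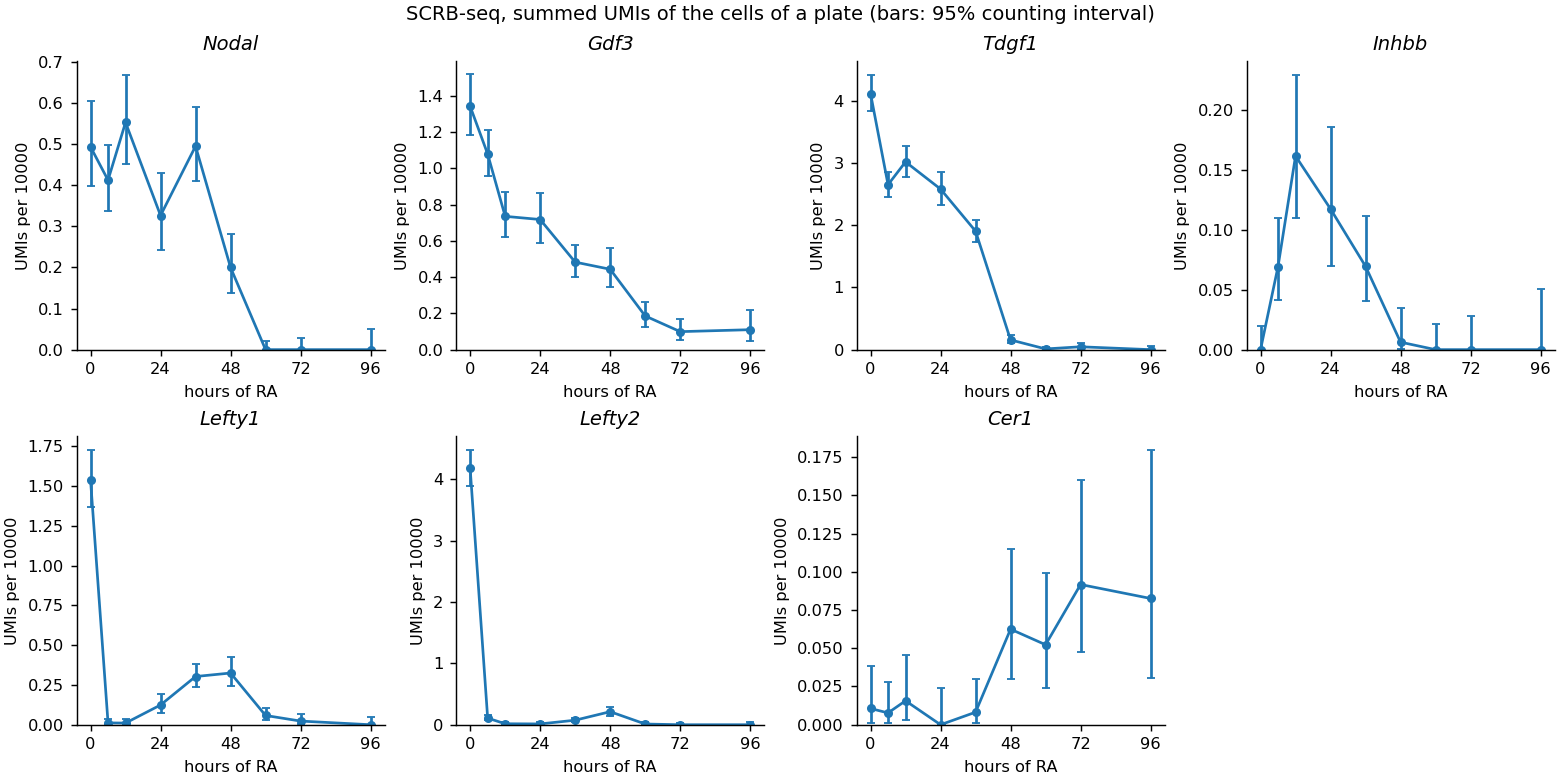
Levels of 7 members in SCRB-seq cells, in summed UMIs per 10000 against hours of RA, with 1 plate a time and exact Poisson 95% intervals as bars. Lefty2 falls from 4.18 to 0.108 between 0 h and 6 h, Tdgf1 from 1.90 to 0.156 between 36 h and 48 h, and Lefty1 returns to 0.325 at 48 h.

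Shares of cells followed the levels only roughly. At 0 h Lefty2 lay above Tdgf1 and Lefty1 above Gdf3 in level, with overlapping intervals, but below them in share. At 0 h, 65.2% of 282 cells had a UMI of Tdgf1, 62.4% of Lefty2, 39% of Gdf3, 35.1% of Lefty1 and 20.2% of Nodal, at a median of 3938.5 UMIs a cell. With each cell thinned to 2000 UMIs the shares were 47.5%, 42.2%, 18.1%, 17.4% and 8.51%. In the 96 h cells, with a median of 4028 UMIs, Tdgf1, Lefty1, Lefty2 and Nodal were in 0 of 137 cells, which allows a share of up to 2.19% from a floor of 3 counts. That limits cells with a UMI, not cells that express the gene. At 0 h, 46 cells held 5 or more Lefty2 UMIs and 40 held as many of Tdgf1, but the tenth of cells with most UMIs of a gene, 29 cells, held 56.8% of Lefty2 and 58.6% of Tdgf1 UMIs, cells that also include the deepest wells. Across thinned cells of 1 time no pair of members had a Spearman correlation beyond -0.10 to 0.12, too weak in counts this sparse to describe a relation.

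SMART-seq2, which reads whole transcripts, gave RPKM for 82, 86, 89 and 82 cells at 0, 12, 24 and 48 h, here rescaled so that every cell has the same total as the median 0 h cell. Depth per cell is unknown from these values, and a cell was counted as positive above 1. Tdgf1 was positive in 98.8%, 100%, 98.9% and 17.1% of cells, with means of 268, 364, 387 and 20.3 RPKM. Gdf3 was positive in 98.8%, 98.8%, 95.5% and 62.2% of cells, with means of 127, 104, 84.5 and 44.4 RPKM. The co-receptor was thus in nearly every cell until 24 h and in a minority at 48 h, whereas Gdf3 remained in most.

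Nodal was positive in 68.3%, 79.1%, 71.9% and 13.4% of cells. Its mean was 33.9 RPKM at 0 h, 64.3 at 12 h, 51.7 at 24 h and 13.4 at 48 h, so that it was not lower at 12 h or 24 h than at 0 h, unlike in bulk. Over cells the SD was 44.1 at 0 h and 110 at 12 h, larger than the mean in both. Inhbb was positive in 4.88% of cells at 0 h, 60.5% at 12 h, 33.7% at 24 h and 0 of 82 at 48 h, with means of 1.66, 25.4, 14.1 and 0 RPKM. Exact 95% intervals of the first 2 shares, 1.34% to 12.0% and 49.3% to 70.9%, do not overlap, though all cells of a time come from 1 sample.

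Lefty1 was positive in a steady minority, 23.2%, 19.8%, 21.3% and 22% of cells, with means of 13.7, 10.8, 43.5 and 11.8 RPKM. The 24 h mean rests on few cells, the highest holding 1844 RPKM. On the SCRB-seq plates Lefty1 was instead 148-fold lower at 12 h than at 0 h (40.5 to 1224). Lefty2 was positive in 28%, 10.5%, 11.2% and 9.76% of cells. At 0 h its mean was 12.3 RPKM against 268 RPKM for Tdgf1, whereas the 0 h plate held them at 418 and 411 CPM. Cer1 was positive in 1.22%, 6.98%, 11.2% and 8.54%, and Inhba in 1 cell of 86, at 12 h, and none at the other times. The highest Spearman correlations between members were 0.394 for Gdf3 and Tdgf1 over the 12 h cells, 0.369 for Nodal and Tdgf1 and 0.338 for Lefty1 and Lefty2 over the 0 h cells. The cells of a time come from 1 sample and their depth is unknown, so these are descriptions.

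**Figure D5:**
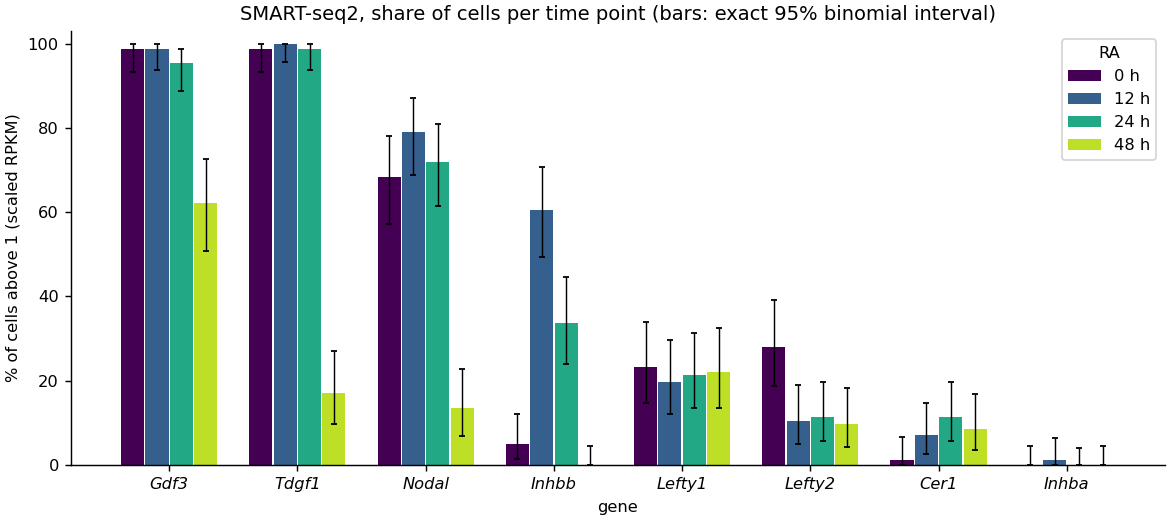
Share of SMART-seq2 cells in which each member exceeded 1 scaled RPKM, in percent, with a bar for each gene and time of RA (82 to 89 cells) and exact binomial 95% intervals as thin lines. Tdgf1 falls from 98.9% at 24 h to 17.1% at 48 h, Inhbb rises to 60.5% at 12 h and is at 0% at 48 h, and Lefty1 stays between 19.8% and 23.2%.

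At 48 h the cells were split, with the class sizes stated in the study's methods, into the 10 highest in Pdgfra, the 29 highest in Cd24a among the rest and 43 others. Tdgf1 was positive in 1, 3 and 10 of these, Gdf3 in 6, 15 and 30, Lefty1 in 3, 6 and 9, Nodal in 2, 7 and 2 and Lefty2 in 2, 1 and 5. Shares with exact 95% intervals for Tdgf1 were 10% (0.253% to 44.5%), 10.3% (2.19% to 27.4%) and 23.3% (11.8% to 38.6%), which overlap. For Nodal they were 20% (2.52% to 55.6%), 24.1% (10.3% to 43.5%) and 4.65% (0.568% to 15.8%), overlapping too. Overlap of separate intervals is no test of a difference. Differences between these classes were not tested, since all cells come from 1 sample. Single cells carried much of what was left, since 1 cell among the others held 734 RPKM of Nodal, and 991 was the highest value of Gdf3 and 795 that of Tdgf1.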

How the data were processed

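The members and the gene lists were chosen with earlier results of these data known. Bulk and SCRB-seq files hold UMI counts per gene, which the authors deposited after mapping to RefSeq transcripts of mouse (mm10) by bwa 0.7.4. For SMART-seq2 the authors deposited RPKM from Tophat and Cuffnorm, of which 0.127% to 0.14% a file, text with a decimal comma, were read as 0. Gkn2 and Rn45s, with 3 damaged values, and 4 rows with repeated names turned into dates were left out of the bulk table.

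Sorted cells and mESCs, 2 libraries each, were compared with edgeR 4.0.16 in R 4.3.3 (TMM scaling, default low-count filter, quasi-likelihood test over 8945 genes, Benjamini-Hochberg adjustment). DESeq2 1.42.0 was an alternative. The edgeR test was tested on simulated data. Intervals of counts and shares are exact (Poisson, conditional, Clopper-Pearson), cover counting error only, and a floor is 3 counts. SCRB-seq wells were kept above 2000 UMIs, with no doublet caller. Each SMART-seq2 cell was rescaled to 1 common total, that of the median 0 h cell. Named genes were all members, pathway genes called by the stated rules, and the 3 genes most like each member. Skil, Smad7 and Fst values over time, and Acvr1b, were added after their values were seen.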

Additional observations from a re-analysis of the deposited data

How the results depend on the processing

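In both comparisons with mESCs, Nodal, Gdf3 and Tdgf1 were lower and called under every alternative tried: DESeq2 size factors, library totals, the DESeq2 Wald test, no filter, only the 2 groups compared, and without each library. Counts of genes called moved more. For ectoderm-like cells against mESCs the 1712 became 1094 with the DESeq2 Wald test and 883 to 1349 with a library left out, lowest without the second ectoderm-like library and next without the first (1015). For XEN-like cells against mESCs the 2042 became 1269 to 1663, lowest without the first XEN-like library. For XEN-like against ectoderm-like cells the 1138 became 707 with DESeq2 and 267 to 668 whichever sorted library was left out, lowest without the first ectoderm-like one. A lone library was assumed to vary like the other groups.

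Same-numbered sorted libraries deviated together (r = 0.333 over 2 pairs), which with 2 pairs shows only a shared number, and a replicate block in a fit of the 4 sorted libraries gave 2732 genes called. No member could be tested in that fit.

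The differences between the sorted types had no stable sign: Tdgf1 was at -0.015 with library totals only, and with a library left out the log2 values ran from -4.03 to 0.36 for Nodal, -0.78 to 0.68 for Gdf3 and -0.80 to 1.00 for Tdgf1, none called. Lefty1 and Lefty2 depended on the filter and the mESC library. Without a filter both were called lower than in mESCs for ectoderm-like cells (log2 changes -2.56, edgeR adjusted p = 0.000247, and -6.65, edgeR adjusted p = 7.33e-17), and with DESeq2 neither was (adjusted p = 0.25 and 0.176). Without the first mESC library both were called, and without either sorted ectoderm-like library neither was (adjusted p from 0.133 to 0.455). XEN-like cells gave the same calls under these settings.

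With the second mESC library as 0 h, the members called lower at 96 h went from 3 to 5, the highest RA value over 0 h from 72.6 to 2.39 for Lefty1, 6.92 to 0.0519 for Lefty2 and 1.01 to 0.788 for Tdgf1, and 96 h over 0 h from 4.69 to 0.154 for Lefty1 and 2.34 to 0.0176 for Lefty2. Relative to Gapdh, 2 members in place of 1 were called lower in Q4 than in Q1. With wells above 4000 UMIs, 70 of 72 SCRB-seq values moved by less than their interval. Those wells are a subset of the same cells, and values without a UMI cannot move, so this says little about stability. Leaving out 88 wells above 20000 UMIs, chosen after seeing the data, gave Tdgf1 3.60 and Lefty1 1.33 per 10000 at 0 h and Tdgf1 2.41 at 6 h. All 32 SMART-seq2 shares stayed within their interval at the threshold of 5. With the RPKM as deposited, all 32 means moved by less than the SD over cells. That SD often exceeds the mean, so this margin says little about how stable the means are.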
